A study of Homo sapiens with 6 samples.

Results

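The 10 genes described here are used to recognise the epithelium of the lung, and they were followed across RNA-seq libraries of human lung cancer cells that carry the label A549. They are the surfactant protein genes SFTPB and SFTPD, ABCA3, LAMP3 and LPCAT1 of the surfactant-storing apparatus, the transcription regulators NKX2-1, CEBPA, GATA6 and HOPX, and CAV1. They were found by gene symbol and make up 10 of 17789 symbols listed in at least 1 library. The 6 libraries fall into 3 controls, whose genotype is given as wild type, and 3 libraries of FOXD3 knockdown. FOXD3, a forkhead transcription factor, was knocked down by lipofection of pooled siRNAs, and the knockdown was examined 72 h later, per the labels' protocols. What the control cells received is not given in the sources used here. Separate cultures are not stated for the replicates either, and the spread between libraries that the p-values measure may be technical. Replicate numbers were assigned here in sample order, since the labels give none.

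Alveolar type 2 cells make surfactant, a film of phospholipid and surfactant proteins that lowers surface tension in the air spaces and that is stored in lysosome-related organelles called lamellar bodies. Alveolar type 1 cells are the thin cells across which gas is exchanged, and they are rich in caveolae, the membrane pits built by caveolins. NKX2-1, GATA6 and C/EBP factors control surfactant genes and lung development, and lung adenocarcinomas keep this programme to varying degrees.

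Some properties of the libraries bear on every value. Levels are in FPKM, fragments scaled to transcript length and library size. The FOXD3 level was 0.152, 0.291 and 0.134 FPKM across control replicates 1, 2 and 3. It was 0.0749 FPKM in knockdown replicate 2 and was not listed in knockdown replicates 1 and 3 (exact two-sided permutation p = 0.1, the smallest that 3 against 3 allows). A549 is known for a deletion that removes CDKN2A, yet CDKN2A stood at 154 ± 0.815 FPKM (SD, n = 3) in control and 128 ± 1.55 in knockdown libraries. Its neighbours CDKN2B and MTAP were also present, at 16.1 ± 1.10 and 10.5 ± 1.27 FPKM in control, and VIM, which A549 is known to express strongly, was at 3.79 ± 0.401. Of other genes known to be abundant in A549, AKR1C1 was at 431 ± 27.5 and AKR1B10 at 391 ± 4.46 FPKM in control. ALDH1A1 was at 31.7 ± 2.31 FPKM, above 84.4% of the symbols with a value there. The epithelial genes EPCAM, KRT8 and KRT18 were abundant in all 6 libraries. The CDKN2A level goes against the known deletion, and its neighbours CDKN2B and MTAP were not absent either. The VIM level, above 41.6% of the symbols with a value in control, goes against the strong expression known for A549. The AKR1C1 and AKR1B10 levels go with the label. What the cells are is not settled by these levels. The cells are called here only by their label. Control libraries listed 16229 to 16288 gene symbols and knockdown libraries 15651 to 15754. Depth was put roughly at 6580000 to 6960000 fragments per control library and 7040000 to 7910000 per knockdown library. It was taken from the 4 to 8 of 90 intronless genes whose values imply 5000000 to 12000000. The estimate could not leave that window, and fragment numbers given for low genes scale with it. For FOXD3 they were about 2.15, 3.99 and 1.95 in the controls and 1.1 in knockdown replicate 2. The FOXD3 values thus say little about the extent of the knockdown. In bulk RNA, fewer cells of a type and less RNA per cell cannot be told apart.

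Not all of the 10 genes were detected. SFTPB, the hydrophobic surfactant protein needed for the surface film, was not listed in any of the 6 libraries. The other 9 genes were listed in at least 1 library and 8 of them in all 6. Of these, 7 reached a mean of 1 FPKM over the 6 libraries, where 12440 of 17789 symbols did. The surfactant genes outside the set were also near the floor: SFTPC was listed only in knockdown replicate 2, at 0.149 FPKM, SFTPA1 did not exceed 0.139 FPKM and SFTPA2 did not exceed 0.451. A gene that is not listed was set to 0 and may lie under the depth of these libraries.

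**Figure D1:**
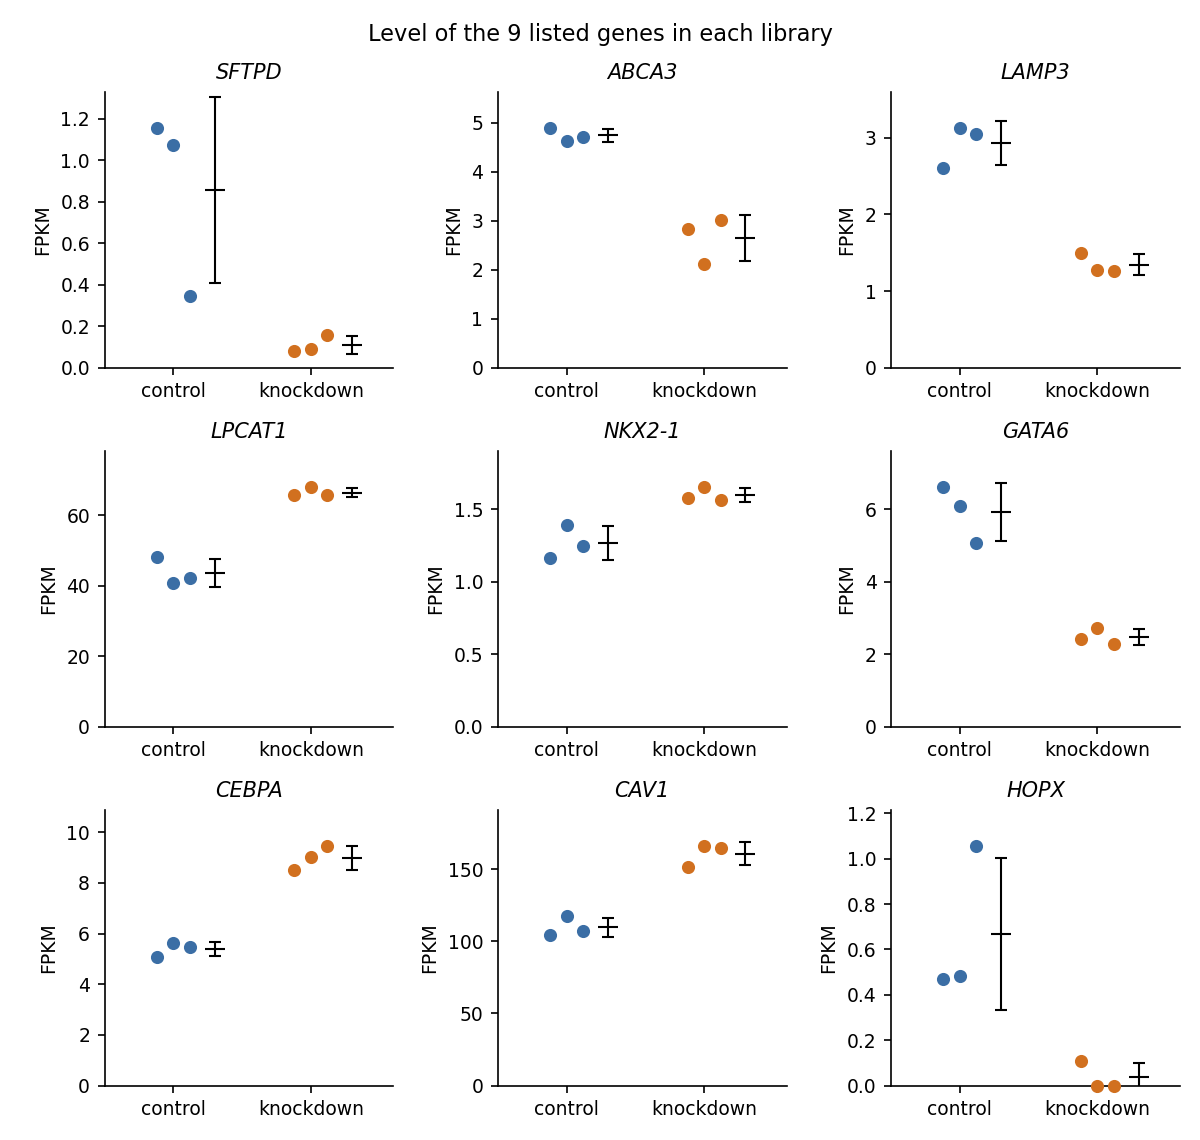
FPKM of the 9 listed genes in each library, on axes from 0 with a scale of its own for each gene; points are libraries (blue for control, orange for FOXD3 knockdown), and bars give the mean and SD of 3. In every panel the groups are separate: CEBPA, LPCAT1, CAV1 and NKX2-1 are higher in the knockdown libraries, and ABCA3, LAMP3, GATA6, SFTPD and HOPX are lower; HOPX is not listed in knockdown replicates 2 and 3, drawn at 0.

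Of the 10 genes, 7 had a mean of at least 0.5 FPKM and entered the comparison, a limma fit of log2(FPKM + 1) over 13340 symbols in which a gene was called at a Benjamini-Hochberg adjusted p under 0.05. CEBPA, LPCAT1 and CAV1 rose in the knockdown libraries, and ABCA3, LAMP3 and GATA6 fell. NKX2-1 was not called. Across all tested symbols 63.5% were called, 25.6% higher and 37.9% lower, so 6 calls among 7 genes stand on a background in which most genes were called. The groups did not overlap in any of the 7, 4 higher and 3 lower in knockdown, where 69.1% of all tested symbols did not overlap (28.3% higher and 40.8% lower). The median log2 change of the 7 was 0.20 beside -0.09 for all tested symbols. The balance of directions over all genes depended on scaling: 40.4% of all calls were higher with FPKM as deposited, 53.6% after median scaling and 52.4% after quantile normalization. The directions of the 7 genes were the same under both scalings, as were the 6 calls.

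The lipid transporter and the membrane glycoprotein of lamellar bodies were both lower in knockdown libraries. ABCA3 (Entrez 21, chromosome 16, 2325879 to 2390747, hg19) moves phospholipid into lamellar bodies. The controls had 4.90, 4.64 and 4.72 FPKM in replicate order, and the knockdown libraries had 2.82, 2.12 and 3.02. The controls lay close together, knockdown replicate 2 was the lowest library, and the groups did not overlap. The mean went from 4.75 ± 0.133 to 2.65 ± 0.476 FPKM, 1.79-fold lower, with a log2 change of -0.66 (SE 0.11, 95% interval -0.91 to -0.41; limma, Benjamini-Hochberg adjusted p = 0.000936).

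LAMP3, or DC-LAMP (Entrez 27074, chromosome 3, 182840003 to 182880667, hg19), is a lysosome-associated membrane protein of lamellar bodies and of mature dendritic cells. Its level was 2.60, 3.13 and 3.06 FPKM in the controls and 1.5, 1.27 and 1.26 FPKM in the knockdown libraries, in replicate order. Every knockdown library was below the lowest control. At the estimated depth the LAMP3 levels correspond to about 42.7 to 51.4 fragments in the controls and 21.7 to 26.4 in the knockdown libraries. The mean fell from 2.93 ± 0.286 to 1.34 ± 0.135 FPKM, 2.18-fold, and the log2 change was -0.75 (SE 0.10, interval -0.98 to -0.51; limma, adjusted p = 0.000309). Of 9 dendritic cell markers 2 passed the filter and both were called lower, where 37.9% of all tested symbols were. These were the chemokine CCL22, from 9.91 ± 1.63 to 1.74 ± 0.396 FPKM, and CD83, an activation marker, from 6.82 ± 0.459 to 2.76 ± 0.359. The summed level of the 9 was 15.6 to 18.4 FPKM in control and 4.04 to 5.39 in knockdown libraries, mostly from CCL22 and CD83. Under the filter, ITGAX and CCL17 were lower in every knockdown library, and the groups of CCR7 overlapped. Of the defining markers CD1A was not listed, and CD80, CD86 and CD209 were each under 0.1 FPKM in every library. The part of dendritic genes in the LAMP3 difference was not tested.

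LPCAT1 (Entrez 79888, chromosome 5, 1461542 to 1524076, hg19), the acyltransferase that remodels phosphatidylcholine into the saturated form found in surfactant, went the other way. Its levels were 48.2, 40.7 and 42.1 FPKM across the controls and 65.7, 68.0 and 65.6 FPKM across the knockdown libraries. The knockdown libraries lay within a narrow range above all controls, of which replicate 1 was the highest. The mean rose from 43.7 ± 3.95 to 66.4 ± 1.37 FPKM, 1.52-fold, and the log2 change was 0.60 (SE 0.07, interval 0.45 to 0.75; limma, adjusted p = 9.67e-05).

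SFTPD (Entrez 6441, chromosome 10, 81697496 to 81708861, hg19) encodes surfactant protein D, a collectin that binds microbes and is also made outside the alveolus. It was the only surfactant protein gene of the set with a value. Control replicates 1, 2 and 3 had 1.16, 1.07 and 0.344 FPKM, and knockdown replicates 1, 2 and 3 had 0.0826, 0.0881 and 0.159. Control replicate 3 was far below the other controls but above every knockdown library. The means were 0.857 ± 0.447 and 0.110 ± 0.0425 FPKM. Its mean over all 6 libraries was under the filter, and an exact permutation test (two-sided) returned p = 0.1, the lowest value this design can reach. At the estimated depth these levels correspond to about 10.1, 9.04 and 3.06 fragments in the controls and 0.772, 0.795 and 1.61 in the knockdown libraries, and no fold is given.

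The transcription factors did not move together. GATA6 (Entrez 2627, chromosome 18, 19749416 to 19782227, hg19), a zinc-finger factor of lung and gut endoderm, had the largest absolute log2(FPKM + 1) change of the 7 tested genes. Control levels were 6.61, 6.10 and 5.06 FPKM and knockdown levels 2.41, 2.72 and 2.28 FPKM. The lowest control was well above the highest knockdown library. The mean fell from 5.92 ± 0.792 to 2.47 ± 0.226 FPKM, 2.40-fold, and the log2 change was -0.99 (SE 0.11, interval -1.24 to -0.75; limma, adjusted p = 9.06e-05). Of all tested symbols 92.0% had a smaller absolute change than GATA6, and 83.7% a smaller one than LAMP3. For the other 4 called genes this share was 71.8% to 79.5%.

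CEBPA (Entrez 1050, chromosome 19, 33790840 to 33793430, hg19) encodes the leucine-zipper factor C/EBP alpha, which promotes differentiation and restrains proliferation in several tissues. Its level was 5.06, 5.63 and 5.46 FPKM in the controls and 8.51, 9.0 and 9.45 FPKM in the knockdown libraries. All knockdown libraries were above all controls. The mean rose from 5.38 ± 0.289 to 8.99 ± 0.470 FPKM, 1.67-fold, with a log2 change of 0.65 (SE 0.07, interval 0.48 to 0.81; limma, adjusted p = 0.000121). GATA6 and CEBPA overlapped in the controls, at 5.06 to 6.61 and 5.06 to 5.63 FPKM, and were apart in the knockdown libraries.

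NKX2-1 (Entrez 7080, chromosome 14, 36985604 to 36989430, hg19), the homeobox factor also known as TTF-1 that marks lung and thyroid epithelium, was low in both groups. The controls had 1.16, 1.39 and 1.24 FPKM and the knockdown libraries 1.57, 1.65 and 1.57. The groups did not overlap but lay close together. About 17.9 to 20.7 fragments lay behind the control values and 26 to 28 behind the knockdown values. The means were 1.27 ± 0.116 and 1.6 ± 0.0485 FPKM, and the log2 difference was 0.20 (SE 0.10, interval -0.02 to 0.42; limma, adjusted p = 0.103). The call depended on the processing, since the adjusted p was 0.0308 after median scaling, 0.00202 after quantile normalization and 0.0248 without the mean-variance trend. Over 13 alternatives the adjusted p ranged from 0.00202 to 0.22.

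RefSeq windows of 300 bases around the start sites (GRCh38.p14, 250 bases before to 50 after) were found for 9 of the 10 genes, as 14 windows; LAMP3 had none. Each was searched on both strands for short motifs. The forkhead core searched was GTAAACA, which 3.42% of all 34943 windows of this length hold. The NKX2-1 core was CAAGTG, held by 11.5% of them. The GATA core was AGATAA, held by 10.4%. The C/EBP site was TTGCNNCAA, held by 1.99%. A single window, at a start of NKX2-1 shared with the neighbouring gene SFTA3, held the forkhead, NKX2-1 and GATA cores, and no window of the set held the C/EBP site. The stretch with the NKX2-1 core and, on the other strand, the forkhead core (both in capitals) is shown because the knocked-down gene encodes a forkhead factor. It lies at chr14:36519677-36519706 on the minus strand, 150 to 121 bases before the start, within an annotated untranslated exon of longer NKX2-1 transcripts and an exon of NKX2-1-AS1 on the other strand.
NKX2-1: tgaCAAGTGaaacttaaaggTGTTTACctt
Such matches describe the sequence and do not show binding, and NKX2-1 was not called.

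HOPX (Entrez 84525, chromosome 4, 57514154 to 57547872, hg19), a small homeodomain protein that does not bind DNA itself and marks alveolar type 1 cells, was close to the detection limit. Control replicates 1, 2 and 3 had 0.469, 0.483 and 1.06 FPKM. Knockdown replicate 1 had 0.109 FPKM, and the gene was not listed in knockdown replicates 2 and 3. All controls were above all knockdown libraries, with control replicate 3 the highest. An exact permutation test (two-sided) returned p = 0.1. About 3.64, 3.62 and 8.38 fragments lay behind the control values and 0.908 behind that of knockdown replicate 1, so no fold was computed. Among 4449 symbols listed but under the filter, 23.2% had groups that did not overlap and 20.4% were lower in every knockdown library than in every control, as SFTPD and HOPX were. Fewer symbols were listed in the knockdown libraries, and the part of this in the SFTPD and HOPX differences was not tested.

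CAV1 (Entrez 857, chromosome 7, 116164839 to 116201239, hg19) encodes caveolin-1, the main coat protein of caveolae, abundant in alveolar type 1 cells, endothelium and fibroblasts. Its levels were 104, 117 and 107 FPKM in the controls and 151, 166 and 164 FPKM in the knockdown libraries. The groups were well apart. The mean rose from 110 ± 6.76 to 160.5 ± 8.06 FPKM, 1.47-fold, with a log2 change of 0.55 (SE 0.06, interval 0.41 to 0.68; limma, adjusted p = 8.03e-05). The summed level of 7 endothelial markers was 6.69 to 7.92 FPKM in control and 4.06 to 4.25 in knockdown libraries, mostly from CDH5 and ESAM. PECAM1, the pan-endothelial adhesion molecule, stood at 0.0708 ± 0.0347 FPKM in control and 0.105 ± 0.0408 in knockdown libraries, which overlapped. The summed level of 8 fibroblast markers was 3.66 to 4.63 and 2.96 to 3.63 FPKM, mostly from COL1A1, and DCN and LUM were not listed. The part of either cell type in the CAV1 difference was not tested.

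**Figure D2:**
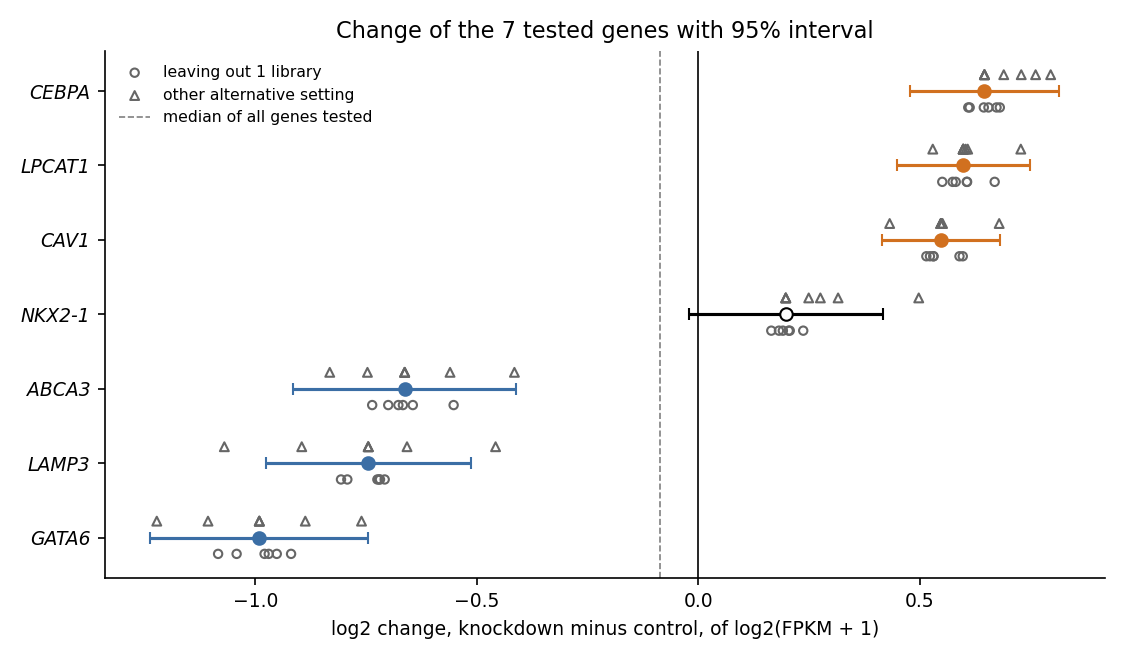
Difference in log2(FPKM + 1), knockdown minus control, of the 7 tested genes, with the 95% interval of the limma fit (bars); open circles are the values with 1 library left out, triangles those of the other alternatives, and a dashed line marks the median of all 13340 tested symbols, -0.09. GATA6, LAMP3 and ABCA3 lie below 0, CAV1, LPCAT1 and CEBPA lie above it, and the interval of NKX2-1, drawn open as not called, spans 0.

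On the FPKM scale, which is per length of transcript, the 9 listed genes spanned the range from abundant to barely detected. In the controls the order was CAV1, LPCAT1, GATA6, CEBPA, ABCA3, LAMP3, NKX2-1, SFTPD and HOPX. Neighbours whose libraries overlapped there were GATA6 with CEBPA and SFTPD with HOPX, and the lowest NKX2-1 library and the highest SFTPD library were both at 1.16 FPKM. CAV1 stood above 95.6% of the 17296 symbols with a value in the controls and LPCAT1 above 88.8%. GATA6, CEBPA and ABCA3 stood above 45.1% to 49.2%, LAMP3 above 38.1%, NKX2-1 above 29.1%, SFTPD above 25.6% and HOPX above 23.8%. In the knockdown libraries the order was CAV1, LPCAT1, CEBPA, ABCA3, GATA6, NKX2-1, LAMP3, SFTPD and HOPX, with overlap between ABCA3 and GATA6 and between SFTPD and HOPX. CEBPA stood above 58.8% of the 16760 symbols there and GATA6 above 37.4%. The most abundant genes of the set were CAV1 and LPCAT1, which are also widely expressed outside the alveolus.

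**Figure D3:**
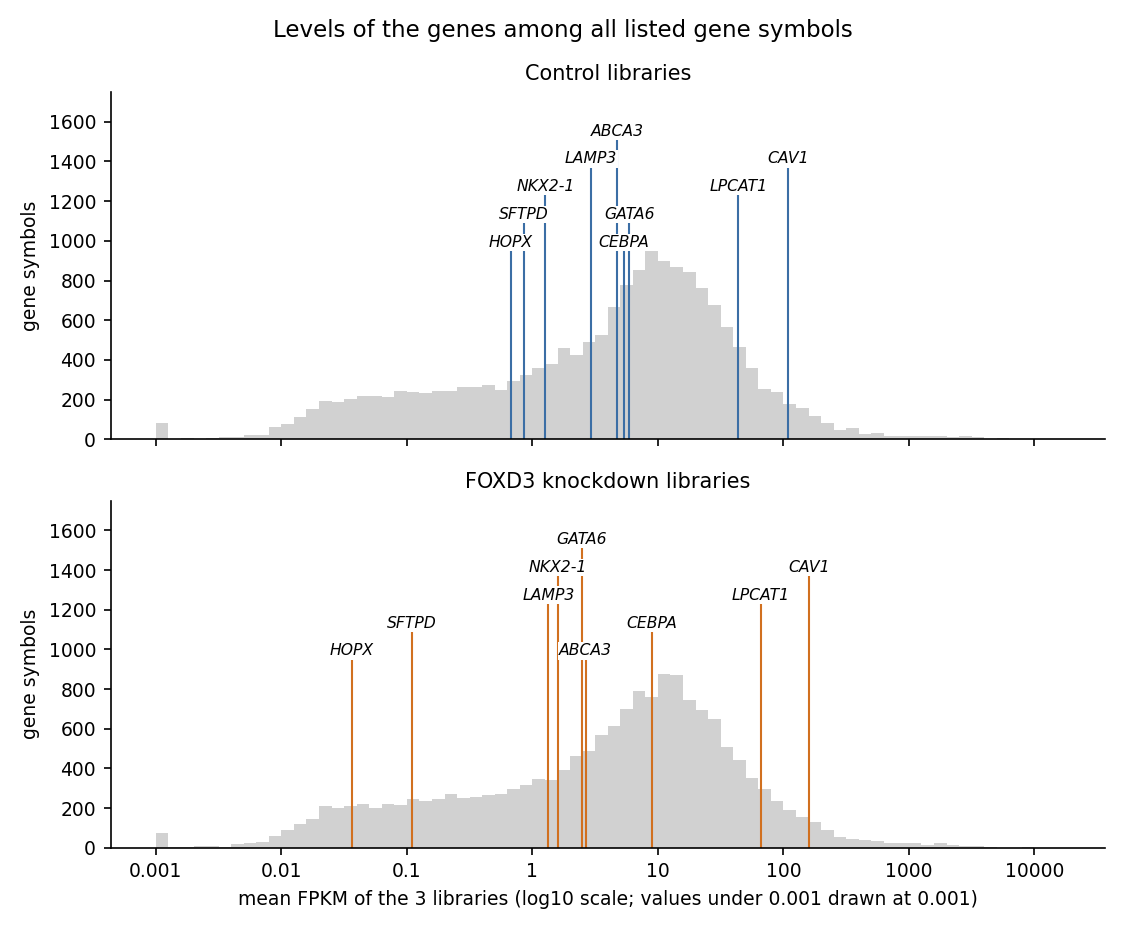
Histograms of the mean FPKM of all listed symbols (log10 axis; number of symbols per bin) in control (upper) and FOXD3 knockdown libraries (lower), with a line at the mean of each of the 9 listed genes. CAV1 and LPCAT1 lie in the upper tail of both, GATA6 and CEBPA lie side by side in the controls and apart in the knockdown libraries, and SFTPD and HOPX lie in the low tail of the knockdown libraries.

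The authors' deposited table of their own comparison held 7 of the 10 genes, and 6 had a false discovery rate under 0.05 in it. The authors' deposited table gave log2 fold changes of -0.71 for ABCA3, -1.02 for LAMP3, -1.12 for GATA6, 0.73 for LPCAT1, 0.89 for CEBPA and 0.63 for CAV1, with false discovery rates from 0.00274 to 0.0365. For NKX2-1 the authors' deposited table gave 0.48 and a rate of 0.488. Of 12275 genes in the authors' deposited table, 22.1% were under 0.05 (10.9% higher and 11.2% lower), fewer than in the limma fit. SFTPB, SFTPD and HOPX were not listed there.

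Related genes were counted in the same fit, from lists of each role, beside 25.6% of all tested symbols called higher and 37.9% lower. After median scaling 4539 of 13323 symbols were called higher and 3928 lower. After quantile normalization these were 4304 and 3909 of 13340. Of 15 other genes of alveolar type 2 cells, 14 were listed, 5 passed the filter, 1 rose and 3 fell, with a median log2 change of -0.34 beside -0.09 for all tested symbols. ETV5, an ETS factor of type 2 cells, went from 17.1 ± 2.31 to 10.6 ± 0.636 FPKM (limma, adjusted p = 0.000593), and SDC1, the proteoglycan syndecan-1, from 32.1 ± 2.57 to 46.7 ± 1.2 (adjusted p = 0.000156). MUC1, a membrane mucin, and CTSH, a protease that processes surfactant proteins, fell by 0.34 and 0.21 on the log2 scale, and both calls were lost after median scaling (adjusted p = 0.0821 and 0.26). The CTSH call was also lost without control replicate 3 (0.0612) or knockdown replicate 2 (0.0659) or 3 (0.0653). SLC34A2, the phosphate transporter of type 2 cells, was listed only in controls, at 0.174 to 0.277 FPKM, and NAPSA, the aspartic protease napsin A, at 0.306 to 0.775 in controls and 0.101 to 0.561 in knockdown libraries. In all, 9 of the 15 were under the filter, and FGFR2 was not listed.

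In the membrane protein list of lysosomes and lamellar bodies, the neighbours of ABCA3 and LAMP3, 8 of 12 tested genes fell and 1 rose. The median was -0.36, and after median scaling or quantile normalization 6 were lower and 2 higher. Of all tested symbols 37.9% were called lower and 25.6% higher. ABCA5, among the 8, passed the filter only through the controls (0.926 ± 0.134 against 0.355 ± 0.0788 FPKM). ABCA2, a lipid transporter related to ABCA3, went from 16.9 ± 0.659 to 8.67 ± 0.438 FPKM (limma, adjusted p = 1.12e-05), and ABCA7, another of the family, from 7.68 ± 0.232 to 5.05 ± 0.0912 (0.00024). SCARB2, a lysosomal membrane receptor, fell by 0.52 on the log2 scale and HPS4, a factor in the biogenesis of lysosome-related organelles, by 0.41. Of the nearest relatives of LAMP3, LAMP2 had a log2 difference of 0.01 (limma, adjusted p = 0.957). LAMP1 fell by 0.30, in the direction of LAMP3. Its call was lost after median scaling (adjusted p = 0.0849) and kept after quantile normalization (-0.42, adjusted p = 0.000345).

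Of phosphatidylcholine enzymes, the pathway of LPCAT1, 2 were called higher and 5 lower of 14 tested, with a median of -0.12. Over all tested symbols 25.6% were called higher and 37.9% lower, with a median of -0.09. The count for these enzymes depended strongly on scaling, with 7 higher and 3 lower after median scaling and 2 and 4 after quantile normalization. CHPT1, a cholinephosphotransferase, went from 8.52 ± 1.82 to 14.7 ± 0.648 FPKM (limma, adjusted p = 0.00123), while CHKB, a choline kinase, went from 10.2 ± 0.744 to 5.40 ± 0.471 (7.86e-05). STARD10, a phospholipid transfer protein, fell by 0.38 on the log2 scale and the phospholipase PLA2G6 by 0.37, the latter call being lost after quantile normalization (adjusted p = 0.0684). Of the other acyltransferases, LPCAT2 and LPCAT3 had log2 differences of -0.22 and 0.15 (adjusted p = 0.0585 and 0.168). LPCAT4 fell by 0.30, a call lost after median scaling (adjusted p = 0.086) and without knockdown replicate 3 (0.0504). No other LPCAT gene was called higher with FPKM as deposited, while LPCAT3 was after median scaling (adjusted p = 0.0285).

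Among relatives of CEBPA and GATA6, 6 of 10 tested fell and 1 rose, with a median of -0.42 (5 lower and 2 higher under either scaling). The share of all tested symbols was 37.9% lower and 25.6% higher. CEBPD and CEBPB, C/EBP factors induced by inflammatory signals, fell from 9.36 ± 1.88 to 3.54 ± 0.215 FPKM (limma, adjusted p = 0.000116) and from 103 ± 13.0 to 59.5 ± 9.09 (0.00062), opposite to CEBPA. CEBPG fell by 0.59 on the log2 scale. GATA5 fell with GATA6, from 2.83 ± 0.0601 to 1.48 ± 0.176 FPKM (0.00055). GATA2 rose from 25.5 ± 1.21 to 34.6 ± 0.5 (0.000171), GATA3 fell by 0.28, a call lost under either scaling (adjusted p = 0.169 and 0.0959) and without control replicate 1 or 2 or knockdown replicate 1 or 2 (0.0551 to 0.0911), and GATA4 did not exceed 0.0373 FPKM.

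Other transcription factors of lung epithelium were split, with 5 higher and 4 lower of 17 tested and a median of 0.04. These counts were 6 and 3 after median scaling and 7 and 3 after quantile normalization. The share over all tested symbols was 25.6% higher and 37.9% lower. FOXA1, a forkhead factor that opens chromatin at lung genes, rose from 21.6 ± 0.179 to 33.7 ± 0.451 FPKM (limma, adjusted p = 1.28e-05), and the homeobox factor IRX3 from 9.30 ± 0.482 to 18.6 ± 1.29 (1.57e-05). EHF, an epithelial ETS factor, fell from 56.2 ± 3.41 to 33.2 ± 1.16 (1.64e-05) and TFCP2L1, a grainyhead-like factor, from 4.04 ± 0.308 to 2.06 ± 0.111 (0.000183). FOXA2 was under the filter, at 0.340 to 0.465 FPKM in control and 0.0522 to 0.0971 in knockdown libraries. SOX2 did not exceed 0.108 FPKM.

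The alveolar type 1 list, beside CAV1 and HOPX, had 2 higher and 3 lower of 7 tested genes and a median of -0.10. Its largest falls were in ICAM1, an adhesion molecule also induced by inflammatory signals, from 47.1 ± 2.90 to 11.9 ± 0.679 FPKM (limma, adjusted p = 5.4e-07), and VEGFA, an angiogenic factor, from 37.4 ± 2.66 to 19.1 ± 0.337 (7.66e-06). AGER, a receptor that marks type 1 cells, fell from 2.33 ± 0.248 to 0.997 ± 0.106 (0.000405), while RTKN2 rose from 6.42 ± 0.766 to 10.1 ± 0.303 (0.000588). The AGER values were summed over 7 loci. PDPN was not listed, and AQP5, the water channel, was under the filter. The caveola list was split beside the rise of CAV1: 2 of 6 tested genes rose and 4 fell, with a median of -0.20 (2 and 2 after median scaling, 2 and 4 after quantile normalization). Over all tested symbols 25.6% rose and 37.9% fell. CAV2, the partner of caveolin-1, fell from 59.8 ± 3.99 to 44.0 ± 1.55 FPKM (0.000333) and EHD2, an ATPase at the caveolar neck, from 15.6 ± 0.539 to 9.48 ± 0.745 (8.65e-05). PTRF, the caveolar coat protein cavin-1, rose from 63.5 ± 5.55 to 78.3 ± 0.891 (0.00338) and PRKCDBP, or cavin-3, from 4.98 ± 1.55 to 7.92 ± 0.911 (0.0168, but 0.0589 without knockdown replicate 1).

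Genes of airway cell types were counted for comparison with the alveolar set, beside 25.6% called higher and 37.9% lower over all tested symbols. SCGB1A1, the secretoglobin of club cells, was not listed in the controls and stood at 1.72, 2.24 and 0.844 FPKM in knockdown replicates 1, 2 and 3. It passed the filter only through the knockdown libraries, so its test is not given as support. The secretory genes SCGB3A1 and MUC5AC were not listed. Of 5 tested secretory genes, SCGB1A1 included, 2 were called higher and 1 lower (3 and 0 under either scaling). The other calls were MSMB, a secreted microseminoprotein, with a log2 change of 1.05, and the cytochrome CYP4B1, with -0.44. Both had overlapping groups and lost the call in several runs with a library left out (adjusted p from 0.0506 to 0.0758 for MSMB and from 0.0959 to 0.111 for CYP4B1). Ciliated cell genes had 0 called higher and 3 lower of 6 tested (2 lower after median scaling, 1 after quantile normalization). One of these, the axonemal dynein DNAH5, stood at 1.44 ± 0.284 FPKM in control and 0.424 ± 0.0778 in knockdown libraries; it passed the filter only through the controls, so neither its call nor the count is support for a direction. FOXJ1, the main regulator of motile cilia, was at 0.119 to 0.347 FPKM. Of 5 tested basal cell genes 3 were called higher and 1 lower, also under either scaling; TP63 of these passed the filter only through the knockdown libraries. KRT5, the basal keratin, rose from 0.542 ± 0.139 to 2.54 ± 0.0122 FPKM (limma, adjusted p = 3.06e-05) and KRT15 from 10.2 ± 0.634 to 17.1 ± 0.241 (3.79e-05), whereas KRT17 fell from 45.1 ± 5.51 to 27.8 ± 1.6 (0.00023). No neuroendocrine gene of 8 passed the filter. Of 12 gut and liver genes 1 did, ONECUT2, which passed only through the controls (1.0 ± 0.343 FPKM against 0.451 ± 0.053) and was called lower (adjusted p = 0.0265), a call lost after quantile normalization (0.409) and in each run without control replicate 2 or 3 or a knockdown library (0.0545 to 0.0892). Of 10 leukocyte markers 3 passed and fell (CD14, CSF1R and CD68, of which CD68 was not called after median scaling, adjusted p = 0.695, or without control replicate 3 or any one knockdown library, 0.0569 to 0.0851), and PTPRC, which all leukocytes carry, stood at 0.146 to 0.309 FPKM.

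**Figure D4:**
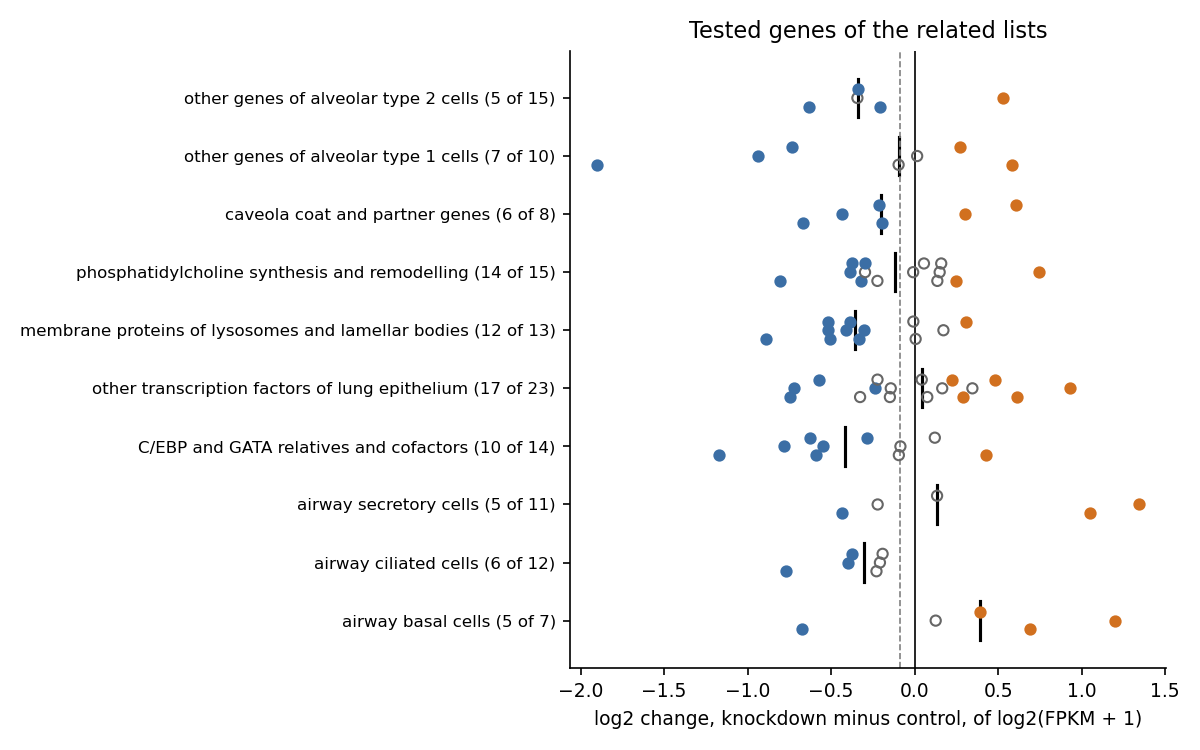
Log2 change of each tested gene of the alveolar, lipid, transcription factor and airway lists, as knockdown minus control; points are genes (orange called higher, blue called lower, open not called), numbers in brackets are tested genes of all genes on the list, with the median of each list as a bar and a dashed line at the median of all tested symbols, -0.09. Genes lie on both sides of 0 in the caveola, phosphatidylcholine and lung transcription factor lists, while most genes of the lysosome and lamellar body list and of the C/EBP and GATA list lie below it.

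The genes most like GATA6 and LAMP3 across the 6 libraries were sought among 9111 symbols with a mean of at least 5 FPKM and a value in every library, by the root mean square difference of log2(FPKM + 1) after centring each gene. For GATA6 they were NKD2 (difference 0.06), RAB32 (0.07) and LARP6 (0.07). NKD2 went from 9.92 ± 1.55 to 4.64 ± 0.215 FPKM. For LAMP3 they were RBBP9 (0.03), DCAKD (0.04) and LRRC28 (0.04), and DCAKD went from 15.3 ± 1.45 to 8.54 ± 0.581 FPKM. This scale understates changes of low genes such as LAMP3, and the pool left out genes under 5 FPKM. Likeness here is thus not likeness in fold. These 6 libraries fall in 2 groups, and likeness within a group was not examined.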

How the data were processed

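RNA-seq of 6 libraries labelled A549, 3 control and 3 FOXD3 knockdown by the genotype in the labels, was analysed. The authors deposited FPKM values per gene, per the file headers; the submitters' processing notes name TopHat2 2.0.12, Bowtie, Cufflinks 2.0.2, Cuffdiff and hg19, without role or order. No source used here gives the strand setting or annotation. The authors' deposited comparison table holds log2 fold changes, p-values and false discovery rates, per the file headers, and was used only for quoted values. FPKM was summed over the loci of a symbol, and unlisted symbols were set to 0. Each listed gene of the set has 1 locus, and no other listed locus overlaps it.

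Symbols with a mean of at least 0.5 FPKM were tested with limma 3.58.1 (R 4.3.3) on log2(FPKM + 1), which understates changes of low genes, with eBayes and a trend, two-sided, and Benjamini-Hochberg adjustment over 13340 symbols. The steps were tested on simulated data with normal noise and changes in few symbols, whereas 63.5% of tested symbols were called here. That test therefore does not show that the calls hold in these libraries. FOXD3, SFTPD and HOPX had exact permutation tests (scipy 1.17.1). The files hold no counts; depth was estimated from 4 to 8 of 90 intronless genes of at least 2500 bases whose values imply 5000000 to 12000000 fragments, and fragments per gene from the median transcript length in GENCODE 29. Genes were named by rule: the 10 genes, FOXD3, up to 4 called genes per list by largest absolute change (higher group mean 1 FPKM or more), markers that define another cell type, and the 3 symbols most like each of the 2 genes that changed most. LAMP1, LAMP2, the other LPCAT genes, GATA2, GATA3, GATA4, FOXA2, SOX2, NAPSA, SLC34A2, AQP5, CDKN2A, EPCAM, KRT8 and KRT18 were added as relatives or markers, and some genes that the rule picks are not printed. The members and lists were chosen with earlier results of these data known. Alternatives were other pseudocounts, filters, scalings and variance settings, and each library left out. Coordinates are hg19, 1-based; promoter windows are RefSeq's on GRCh38.p14.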

Additional observations from a re-analysis of the deposited data

How the results depend on the processing

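The calls of ABCA3, CEBPA, LAMP3, LPCAT1, GATA6 and CAV1 held in each of the 13 or 14 alternatives that kept the gene, with log2 changes of -0.83 to -0.42 for ABCA3, 0.61 to 0.80 for CEBPA, -1.07 to -0.46 for LAMP3, 0.53 to 0.73 for LPCAT1, -1.22 to -0.76 for GATA6 and 0.43 to 0.68 for CAV1. Of the 10 genes, 5 were called lower without the filter, where 5384 of 17789 symbols were. SFTPD (-0.71, limma adjusted p = 0.018) and HOPX (-0.67, 0.00783) were then tested. Both rest on few or no fragments in the knockdown libraries, so these 2 calls are not given as support. With a filter at 5 FPKM, which kept only CAV1, CEBPA and LPCAT1 in the test, 0 were called lower. With one library left out, 3 genes were called higher each time and 3 to 4 lower; the added gene is SFTPD, which passed the filter without control replicate 3 or without any one knockdown library (log2 values -0.93 to -0.69). It passed only through the controls, so these calls are not support. NKX2-1 was called after median scaling (0.28), after quantile normalization (0.50) and without the mean-variance trend (0.20). No paired analysis was possible because the labels carry no replicate numbers. Per library SFTPD had about 10.1 fragments or fewer, HOPX 8.38 or fewer and FOXD3 3.99 or fewer. The depth estimate behind these numbers could not leave its preset window.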
